A study of Mus musculus with 4 samples.

Results

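The basophil and mast cell effector genes Mcpt8, Prss34, Cpa3, Ms4a2, Fcer1a, Il1rl1, Hdc and Il4 were followed in nuclei of mouse bone marrow (BM) hematopoietic stem and progenitor cells (HSPCs). The 8 genes were chosen by name from 32272 gene rows, and with them the 123 of 174339 chromatin peaks within 50 kb of their annotated starts. Lineage-negative, cKit-positive cells were sorted from male C57BL/6 mice of 8 weeks. The Ctrl sample came from unligated mice and the Lig sample from mice whose molars carried silk ligatures for 14 days, which gives periodontitis, with the BM of 5 mice pooled in each. RNA, counted by unique molecular identifiers (UMIs), and accessible chromatin, as transposase insertions (ATAC), were measured in the same nuclei, so the 4 labelled samples were the RNA and the ATAC library of 1 Ctrl and 1 Lig sample, without replicates. Nuclei of both samples were deposited in a single matrix, told apart by a suffix of 1 or 2 on the barcode. Since the labels do not give the sample behind each suffix, the suffixes are called library 1 and library 2, were put in neither group and were not used to assess ligature. They shared 72 barcode sequences among the nuclei kept. Within the basophil/mast-like class described below, RNA of most genes compared, the detected members included, was lower in library 2, so values are given for each library.

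Basophils and mast cells are granule-bearing cells of allergic and antiparasite responses that arise from progenitors in the BM. Both carry the high-affinity IgE receptor, whose crosslinking by antigen releases granules with histamine and proteases and starts the making of lipid mediators and type 2 cytokines. GATA2 is known as a central transcription factor of this lineage. Mcpt8 and Prss34 encode serine proteases typical of mouse basophils, Cpa3 encodes mast cell carboxypeptidase A3, Fcer1a and Ms4a2 encode the alpha and beta chains of the IgE receptor, Il1rl1 encodes the IL-33 receptor ST2, Hdc encodes the enzyme that makes histamine, and Il4 encodes the type 2 cytokine IL-4.

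After filtering, 13619 nuclei remained, 5905 in library 1 and 7714 in library 2. They were clustered without the 8 genes and their 123 peaks, so that the levels of the 8 genes did not shape the clusters, although the other genes of the same nuclei did. A group of 290 nuclei, 127 in library 1 and 163 in library 2, was called basophil/mast-like because Lmo4, Cyp11a1, Gata2 and Slc18a2 were raised in it. The label held only in part. Of 14 markers, 6 had enough UMIs to be compared and 5 of these were at least 4-fold higher in the class, beside 0.698% of all genes. The class was named from this list, so that count is no independent support for the name. The mast cell proteases Cma1 and Mcpt4, Tpsb2, the basophil gene Grm6 and Il13 had 0 UMIs in the class. Of 6 eosinophil markers, Prg2, which encodes a granule protein, had 18 UMIs in the class (40.8 CPM, the counts-per-million scale of all UMIs, against 1.52 CPM in other nuclei), Epx had 6, Prg3 and Ear1 had 1 each, and Il5ra and Ear6 had 0. Of the megakaryocyte progenitor markers, Itga2b was at 81.6 CPM against 11.7 CPM, Itgb3 had 1 UMI, and Pf4, Ppbp, Vwf and Gp9 had 0. The part of cells with these programmes in the values below was not tested. The median nucleus held 1388 UMIs in the class and 1567 UMIs in the other 13329 nuclei, so depth was similar. All intervals are 95% intervals and cover counting error only.

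Of the 8 genes, 6 were far higher in the basophil/mast-like class than in all other nuclei. Together the 8 genes stood at 824.7 CPM (742 to 914) in the class and at 35.1 CPM (32.7 to 37.6) in the other nuclei. The libraries differed in the class, at 1260.2 CPM (1107 to 1429) in library 1 and 487 CPM (404 to 582) in library 2, whereas the other nuclei were at 36.4 and 34.0 CPM. The next classes were neutrophil progenitor-like (NeuP-like) at 141 CPM and erythrocyte progenitor-like (EryP-like) at 78.5 CPM. A gene was counted as higher when its level, with 1 CPM added to both sides, was at least 4-fold that of the other nuclei. All 6 members with at least 20 UMIs passed, beside 0.698% of all 12901 genes with that many UMIs, while Fcer1a and Il4 fell below the minimum. Among those genes Ms4a2 ranked 2, Prss34 3, Mcpt8 4, Il1rl1 8, Hdc 13 and Cpa3 14 by fold over both libraries. The order turned between libraries, with Ms4a2 at 116-fold and Prss34 at 77.2-fold in library 1 but at 23.3-fold and 31.9-fold in library 2. Hdc and Cpa3 were at 18.3-fold and 14.8-fold in library 1 and at 5.05-fold and 6.60-fold in library 2. By level in the class, Mcpt8 stood at 240.2 CPM, Prss34 at 186 CPM and Hdc at 127 CPM. Ms4a2 followed at 122 CPM, Cpa3 at 81.6 CPM and Il1rl1 at 65.7 CPM. A UMI stands for a molecule whatever its length, so values divided by length are not read as abundance. Per kb of exon, the order was Mcpt8 at 241, Prss34 at 152, Cpa3 at 53.8, Ms4a2 at 43.5, Hdc at 19.9 and Il1rl1 at 9.53 CPM per kb. Fcer1a, at 2.27 CPM per kb, rests on 1 UMI. Nuclear RNA also holds introns, and per kb of the whole gene the order turns, with Prss34 at 104.9, Mcpt8 at 77.3, Ms4a2 at 14.9, Hdc at 4.95, Cpa3 at 3.07 and Il1rl1 at 1.83 CPM per kb.

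**Figure D1:**
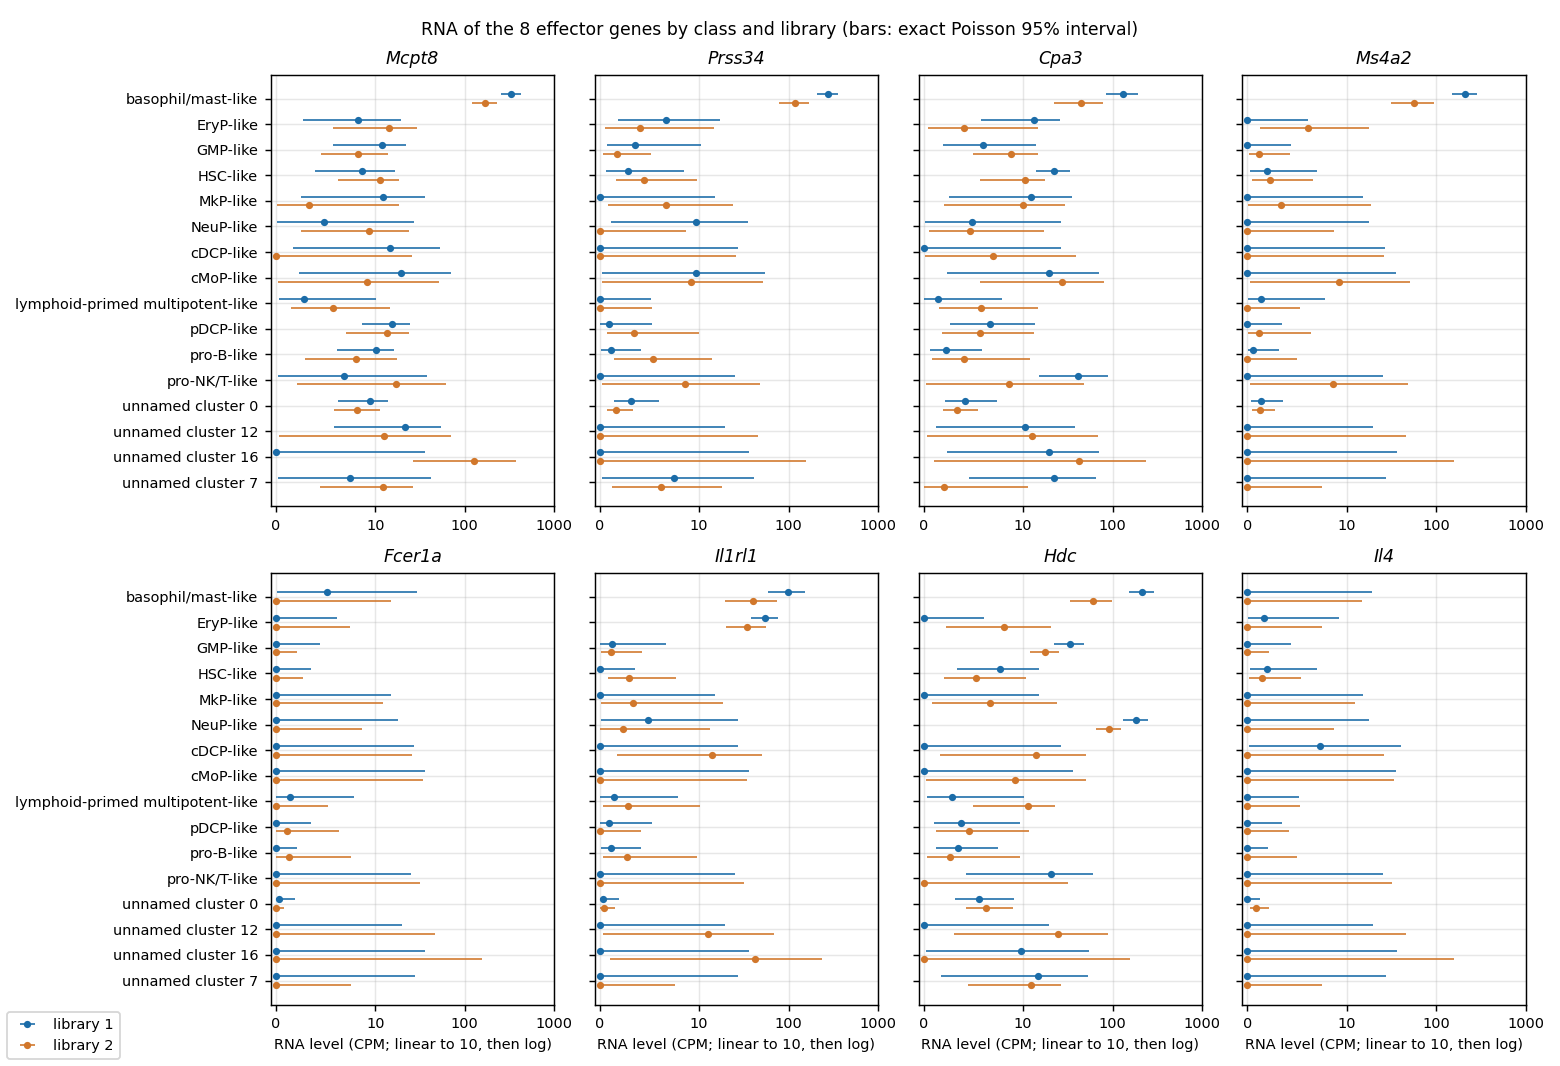
RNA level of each of the 8 genes in CPM (x axis, linear to 10 and logarithmic above) in 16 classes of nuclei (y axis), with 1 point for each library and bars for exact Poisson 95% intervals. Mcpt8, Prss34 and Ms4a2 stand apart in the basophil/mast-like class in both libraries, Hdc is as high in the NeuP-like class and Il1rl1 nearly as high in the EryP-like class.

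Mcpt8 was at 332 CPM (64 UMIs) in the class in library 1 and at 169 CPM (42 UMIs) in library 2, whereas the other nuclei were at 10.0 and 9.36 CPM. Both libraries were far above every large class, and the summed level was 240.2 CPM (197 to 290.5) against 9.65 CPM (8.40 to 11.02), a ratio of 24.9 (19.5 to 31.6). Elsewhere Mcpt8 ran from 4.26 CPM (6 UMIs) in lymphoid-primed multipotent-like nuclei to 23.8 CPM (4.91 to 69.6, 3 UMIs) in the small unnamed cluster 16. It was at 14.5 CPM (9.65 to 20.98, 28 UMIs) in plasmacytoid dendritic cell progenitor-like and 10.96 CPM in EryP-like nuclei. It was at 9.46 CPM in granulocyte-monocyte progenitor-like (GMP-like), 10.1 CPM in hematopoietic stem cell-like (HSC-like) and 9.64 CPM in B cell progenitor-like nuclei (pro-B-like). With nuclei thinned to a depth of 1000 UMIs, 10.7% of nuclei of the class (7.03 to 15.4%) and 1.14% of pro-B-like nuclei, which should lack the gene, held a Mcpt8 UMI, beside 16.2% and 1.53% before thinning (median depths 1388 and 1435 UMIs). In the class the thinned share was 10.6% in library 1 and 10.8% in library 2. Of all nuclei outside the class, 0.848% (0.687 to 1.04%) held one.

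The gene lies on chromosome 14 at 56082166 to 56085273 (GRCm38, minus strand), and the peak over its start, which overlaps exonic sequence, was 2.88-fold more accessible in the class (1.76 to 4.48). That peak was as open in GMP-like nuclei. It held 8.11 ATAC CPM (the same scale for ATAC counts; 5.02 to 12.4) in basophil/mast-like and 8.68 ATAC CPM (7.25 to 10.3) in GMP-like nuclei, although Mcpt8 RNA differed as 240.2 to 9.46 CPM between these classes. The 13 peaks of the Mcpt8 window summed to a ratio of 1.24 (1.07 to 1.43), and 0 of them were at least 4-fold higher in the class, beside 1.18% of all peaks, a share near which 0 of 13 lies. Its neighbours include Ctsg, the cathepsin G gene of neutrophil granules, at 81.6 CPM in the class and 177 CPM in other nuclei, while the neighbouring Mcpt2, Mcpt4, Gzmd and Gzme had 0 UMIs in all nuclei.

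Prss34 was at 275 CPM (53 UMIs) in the class in library 1 and at 117 CPM (29 UMIs) in library 2, against 2.57 and 2.69 CPM in the other nuclei. The intervals of class and other nuclei did not overlap in either library, and the summed ratio was 70.5 (49.8 to 100.3). No other class reached 10 CPM, the highest being the monocyte progenitor-like (cMoP-like) class at 9.43 CPM with 2 UMIs. Of all 141 Prss34 UMIs, 58.2% lay in the class, more than the 32.9% of Mcpt8. The gene spans chromosome 17 from 25298394 to 25300165 (plus strand) and has no peak at its start. The nearest peak, intergenic and at −7.70 kb from the start (minus means upstream), was 1.75-fold higher in the class (0.795 to 3.75), with 2 counts in library 1 and 13 in library 2. The direction turned between libraries. The class was at 0.781 ATAC CPM against 1.52 in other nuclei in library 1, and at 4.97 against 1.78 in library 2. The 15 peaks of the Prss34 window summed to 158 ATAC CPM in the class, a ratio of 1.24 (1.12 to 1.37). Of the 15, 0 were at least 4-fold higher, near the 1.18% of all peaks, and an intergenic peak 18.4 kb downstream, at 3.88-fold (1.89 to 6.72) on 25 counts, was just below that threshold. The 250 bases before the RefSeq start (chr17:25298144-25298393, plus strand) are shown because they hold 1 GATA site although no peak was called there. Capitals mark GATA matches (AGATAA or TGATAA on either strand) in all sequences below, which were read from GRCm38.
Prss34 promoter: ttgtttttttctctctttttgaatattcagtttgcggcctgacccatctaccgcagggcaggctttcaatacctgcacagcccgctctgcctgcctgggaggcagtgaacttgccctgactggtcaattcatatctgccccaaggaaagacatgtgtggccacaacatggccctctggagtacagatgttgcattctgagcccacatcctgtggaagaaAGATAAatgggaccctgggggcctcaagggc

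Cpa3 was less confined. It was at 129.7 CPM (25 UMIs) in the class in library 1 and 44.3 CPM (11 UMIs) in library 2, against 7.82 and 5.86 CPM in the other nuclei, a summed ratio of 12.1 (8.16 to 17.5). HSC-like nuclei held 15.6 CPM (10.9 to 21.4, 37 UMIs), against 2.81 CPM (1.13 to 5.79) in pro-B-like nuclei, and pro-NK/T-like nuclei 26.7 CPM (10.7 to 54.9) on 7 UMIs. By library HSC-like nuclei were at 22.1 CPM (14.02 to 33.2) and 10.5 CPM (5.71 to 17.5), and pro-B-like at 2.29 CPM (0.624 to 5.86) and 4.05 CPM (0.835 to 11.8), so that the intervals were apart in library 1 and overlapped in library 2. Of the 7 UMIs of pro-NK/T-like nuclei 6 were in library 1 (41.0 CPM), and library 2 was at 8.60 CPM. The monocyte progenitor-like class (cMoP-like) and cluster 16 were at 23.6 and 23.8 CPM on 5 and 3 UMIs. HSC-like nuclei contributed as many Cpa3 UMIs as the class did (37 and 36). The ratio of Cpa3 to Mcpt8 UMIs was 0.340 (0.226 to 0.4999) in the class and 1.54 (0.898 to 2.69) in HSC-like nuclei. These intervals did not overlap. The part of free RNA in the levels outside the class was not tested.

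The window of Cpa3 had the largest ratio of class to other nuclei of the 7 windows with peaks. The gene lies on chromosome 3 at 20215620 to 20242181 (minus strand), and its 9 peaks held 56.6 ATAC CPM in the class against 16.3 ATAC CPM in the other nuclei, a ratio of 3.48 (2.91 to 4.10; 3.37 in library 1 and 3.58 in library 2). Of the 9 peaks, 4 were at least 4-fold higher, beside 1.18% of all peaks. An intergenic peak at −1.94 kb from the start was highest, at 17.6 and 21.8 ATAC CPM in the class in library 1 and library 2 and 1.89 ATAC CPM in other nuclei, or 10.4-fold (7.55 to 14.2). The peak over the start was 9.04-fold higher (5.73 to 13.7), and there EryP-like and megakaryocyte progenitor-like (MkP-like) nuclei also held 5.82 and 5.59 ATAC CPM, next to 10.4 ATAC CPM in the class. A peak 18.8 kb into the gene, overlapping an exon, was 5.09-fold higher (2.95 to 8.31) but held 8.57 ATAC CPM in pro-NK/T-like nuclei, no less than the 6.95 ATAC CPM of the class. The fourth, 2.31 kb into the gene, was 4.14-fold higher (2.41 to 6.71). The central 300 bases of the upstream peak (chr3:20243970-20244269) and the bases before the start (chr3:20242182-20242431), each written on the minus strand in the direction of transcription, are shown because both lie in the peaks with the largest ratios at this gene, with 2 GATA matches and 1.
Cpa3 upstream peak: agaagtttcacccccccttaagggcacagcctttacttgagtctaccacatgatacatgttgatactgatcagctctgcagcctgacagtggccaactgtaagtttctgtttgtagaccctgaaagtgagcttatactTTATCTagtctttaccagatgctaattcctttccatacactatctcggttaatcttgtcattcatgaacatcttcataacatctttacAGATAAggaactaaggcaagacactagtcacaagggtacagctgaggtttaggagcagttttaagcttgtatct
Cpa3 promoter: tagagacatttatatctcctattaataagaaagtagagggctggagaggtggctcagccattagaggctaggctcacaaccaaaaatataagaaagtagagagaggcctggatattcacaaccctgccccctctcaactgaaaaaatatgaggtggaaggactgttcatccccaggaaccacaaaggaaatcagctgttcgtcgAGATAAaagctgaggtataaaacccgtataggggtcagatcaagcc

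**Figure D2:**
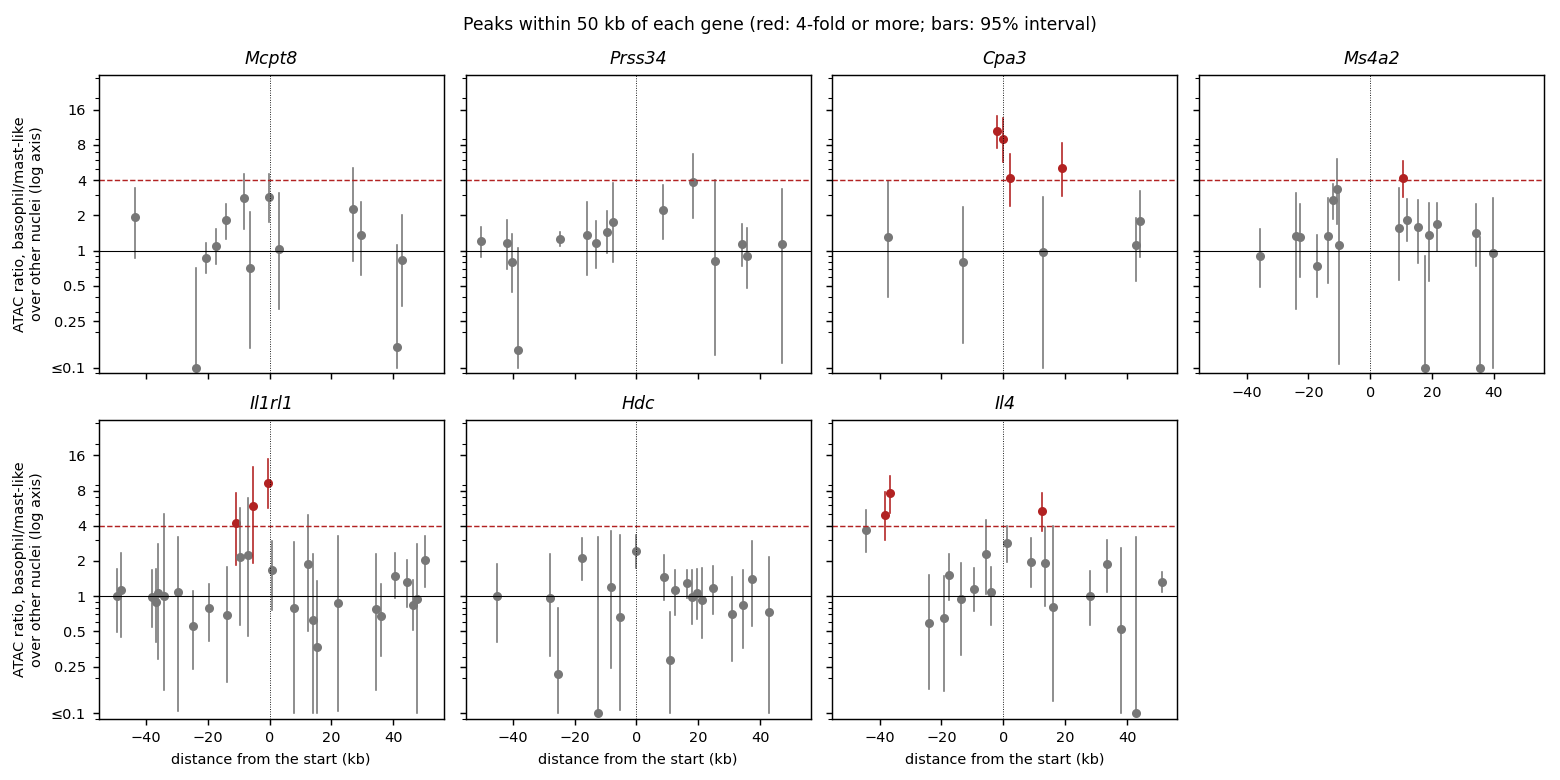
Ratio of ATAC CPM in basophil/mast-like over other nuclei (y axis, logarithmic) for the 123 peaks within 50 kb of 7 genes, by distance from the gene's start in kb (x axis, positive in the direction of transcription), with bars for 95% intervals on halved counts. Red points are the 11 peaks at least 4-fold higher, which lie at Cpa3, Ms4a2, Il1rl1 and Il4, whereas the windows of Mcpt8, Prss34 and Hdc hold none.

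The chains of the IgE receptor differed from each other. Ms4a2, the beta chain that amplifies the receptor's signal, was at 207 CPM (40 UMIs) in the class in library 1 and 56.3 CPM (14 UMIs) in library 2, against 0.792 and 1.46 CPM in the other nuclei. Of the 8 genes it had the largest share of its UMIs in the class over both libraries, though not in library 2 alone. There 14 of 32 Ms4a2 UMIs lay in the class, and 29 of 62 Prss34 UMIs. The summed ratio of Ms4a2 was 105 (64.8 to 175), 67.5% of its UMIs lay in the 290 nuclei of the class, and no other class exceeded 4.72 CPM (1 UMI, cMoP-like). Fcer1a, the alpha chain that binds IgE, had 1 UMI in the class, in library 1, and 4 UMIs in all other nuclei. At 2.27 CPM (0.0574 to 12.6) it could not be told from the 0.179 CPM of the others, and no fold was drawn from it. Of the gamma chain, Fcer1g, there were 5 UMIs in the class (11.3 CPM, 3.68 to 26.4) and 29.4 CPM in the other nuclei.

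Ms4a2 spans chromosome 19 from 11615523 to 11623719 (minus strand), and no peak lay at its start. The nearest peak, 9.19 kb downstream, was 1.56-fold higher in the class (0.564 to 3.45), at 2.32 ATAC CPM on 12 counts. It was more open in EryP-like nuclei, at 6.53 ATAC CPM (4.48 to 9.19), and MkP-like nuclei were at 4.33 ATAC CPM. Of 18 peaks, 1 passed 4-fold, beside 1.18% of all peaks. It was an intergenic peak 10.4 kb downstream of the start and beyond the gene's end. It held 16.001 and 11.9 ATAC CPM in the class in library 1 and library 2 and 3.36 ATAC CPM in other nuclei. That was 4.14-fold (2.86 to 5.83), though 3.45-fold in library 2 alone. HSC-like nuclei were at 8.78 and MkP-like at 7.22 ATAC CPM there, so the peak was open well beyond the class. The 18 peaks summed to a ratio of 1.62 (1.41 to 1.85). Fcer1a, on chromosome 1 at 173221284 to 173227214 (minus strand), had 0 called peaks within 50 kb. No accessible site was thus called there, and no ratio was computed. The bases before the start of Ms4a2 (chr19:11623720-11623969, minus strand), which hold 3 GATA matches without a called peak, those before the start of Fcer1a (chr1:173227230-173227479, minus strand), with 1 match, and the centre of the Ms4a2 downstream peak (chr19:11613130-11613429, minus strand), with 2 matches, are set side by side here.
Ms4a2 promoter: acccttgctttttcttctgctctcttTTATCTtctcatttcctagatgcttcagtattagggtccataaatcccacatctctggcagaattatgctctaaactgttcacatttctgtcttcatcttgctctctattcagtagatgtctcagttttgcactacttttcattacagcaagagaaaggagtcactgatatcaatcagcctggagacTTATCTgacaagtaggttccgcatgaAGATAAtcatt
Ms4a2 downstream peak: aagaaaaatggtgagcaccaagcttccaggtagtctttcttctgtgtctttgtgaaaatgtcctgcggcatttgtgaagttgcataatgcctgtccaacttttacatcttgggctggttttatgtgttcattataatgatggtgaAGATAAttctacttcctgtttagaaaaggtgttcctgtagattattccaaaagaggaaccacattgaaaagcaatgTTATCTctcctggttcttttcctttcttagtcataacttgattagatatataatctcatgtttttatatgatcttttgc
Fcer1a promoter: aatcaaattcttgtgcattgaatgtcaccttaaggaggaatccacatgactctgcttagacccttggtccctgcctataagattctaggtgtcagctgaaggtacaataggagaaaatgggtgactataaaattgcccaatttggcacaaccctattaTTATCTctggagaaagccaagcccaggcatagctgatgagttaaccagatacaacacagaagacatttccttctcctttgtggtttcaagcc

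Il1rl1 was shared with erythroid progenitors. It was at 98.5 CPM (19 UMIs) in the class in library 1 and 40.2 CPM (10 UMIs) in library 2, and at 54.8 CPM (33 UMIs) and 34.5 CPM (17 UMIs) in EryP-like nuclei. The summed levels, 65.7 CPM (44.0 to 94.4) and 45.7 CPM (33.9 to 60.2), had overlapping intervals and were not told apart at this depth. Each was more than 5 times any other class, of which conventional dendritic cell progenitor-like nuclei were highest among the named at 7.13 CPM (2 UMIs). Mcpt8 did not follow this, since the ratio of Il1rl1 to Mcpt8 UMIs was 0.274 (0.175 to 0.416) in the class and 4.17 (2.19 to 8.60) in EryP-like nuclei. The thinned share of EryP-like nuclei with an Il1rl1 UMI was 4.98% (3.31 to 7.17%), against 6.84% (3.96 to 10.9%) in the class and 0.263% (0.0544 to 0.768%) in pro-B-like nuclei, with 6.96%, 9.31% and 0.255% before thinning (median depths 1453, 1388 and 1435 UMIs). By library the thinned share was 11.5% and 3.08% in the class and 5.72% and 4.08% in EryP-like nuclei, so that the class was the higher in library 1 and the lower in library 2, with overlapping intervals in each.

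The start of Il1rl1 was open in the same nuclei. The gene spans chromosome 1 from 40429570 to 40465415 (plus strand). RefSeq gives 2 starts to it, and a peak lay over the upstream one and not over the downstream one at 40439629. The upstream start peak was at 6.63 ATAC CPM (17 counts) in the class in library 1 and 10.3 ATAC CPM (27 counts) in library 2, against 0.914 ATAC CPM in other nuclei, or 9.30-fold (5.62 to 14.9). EryP-like nuclei held 6.43 ATAC CPM (4.40 to 9.07) and MkP-like 2.34 ATAC CPM there. The highest value, 16.2 ATAC CPM on 27 counts, belonged to cluster 16, an unnamed cluster of 89 nuclei led by ribosomal protein genes with raised globin genes, of which 70 came from library 1. That cluster held 1 Il1rl1 UMI. Of the 28 peaks of the window, 3 passed 4-fold, beside 1.18% of all peaks. The others were intergenic peaks at −10.98 kb from the start (4.19-fold, 1.87 to 7.61, with 4.10 in library 1 and 4.28 in library 2) and at −5.27 kb (5.95-fold, 1.93 to 12.8, on 13 counts, of which 0 were in library 1). All 28 summed to a ratio of 1.19 (1.04 to 1.35). The bases before the upstream start (chr1:40429320-40429569, plus strand), with 2 GATA matches, and the centre of the peak at −10.98 kb (chr1:40418441-40418740, plus strand), where 3 matches were counted of which a pair overlap, are shown because both lie in peaks past 4-fold.
Il1rl1 promoter: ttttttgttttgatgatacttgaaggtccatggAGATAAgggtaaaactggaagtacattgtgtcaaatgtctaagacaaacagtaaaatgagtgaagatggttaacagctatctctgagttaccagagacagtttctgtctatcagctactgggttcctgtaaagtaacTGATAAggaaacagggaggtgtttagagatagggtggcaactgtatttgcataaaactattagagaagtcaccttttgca
Il1rl1 upstream peak: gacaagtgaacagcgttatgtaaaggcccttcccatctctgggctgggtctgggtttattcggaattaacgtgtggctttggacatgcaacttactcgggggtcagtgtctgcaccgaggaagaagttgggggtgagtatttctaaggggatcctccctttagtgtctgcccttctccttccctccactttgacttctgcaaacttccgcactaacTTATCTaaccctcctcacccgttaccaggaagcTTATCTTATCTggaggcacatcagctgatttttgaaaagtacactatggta

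Hdc was high in basophil/mast-like and neutrophil progenitor-like nuclei alike. It was at 213 CPM (41 UMIs) in the class in library 1 and 60.4 CPM (15 UMIs) in library 2, and at 183 CPM (38 UMIs) and 91.7 CPM (39 UMIs) in NeuP-like nuclei. Library 1 was the higher in both classes, and in library 2 the NeuP-like level was above that of the class with overlapping intervals. The summed levels were 127 CPM (95.9 to 165) and 122 CPM (96.1 to 152), followed by GMP-like nuclei at 22.9 CPM (17.4 to 29.5), above the 3.21 CPM (1.39 to 6.33) of pro-B-like nuclei. The ratio of Hdc to Mcpt8 UMIs was 0.528 (0.375 to 0.737) in the class, 2.42 (1.48 to 4.07) in GMP-like and 15.4 (6.32 to 48.8) in NeuP-like nuclei, where 77 Hdc UMIs stood beside 5 of Mcpt8. Thinned shares with an Hdc UMI were 8.97% (5.64 to 13.4%) in the class, 10.1% (6.85 to 14.1%) in NeuP-like and 0.263% in pro-B-like nuclei, with 14.5%, 14.0% and 0.510% before thinning, and thinning left out 56 of 290 and 184 of 472 nuclei as too shallow. By library the thinned share was 13.5% and 5.38% in the class and 12.2% and 9.35% in NeuP-like nuclei.

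The peak over the Hdc start, on chromosome 2 (gene at 126593667 to 126619299, minus strand), was likewise most open in both classes. It was at 16.6 ATAC CPM (12.02 to 22.4) in the class and 15.4 ATAC CPM (11.2 to 20.6) in NeuP-like nuclei. GMP-like nuclei were at 9.02, the large unnamed cluster 0 at 8.60 and MkP-like nuclei at 7.22 ATAC CPM. The peak was 2.44-fold higher in the class than in all others (1.75 to 3.32). Of the 20 peaks in the window 0 passed 4-fold, near the 1.18% of all peaks, and the summed window was in fact most accessible in NeuP-like nuclei, at 197 ATAC CPM (181 to 213) beside 109 ATAC CPM (96.6 to 122) in the class and 92.7 ATAC CPM in all nuclei outside it. The window's ratio of class to other nuclei was 1.40 in library 1 and 0.975 in library 2.

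**Figure D3:**
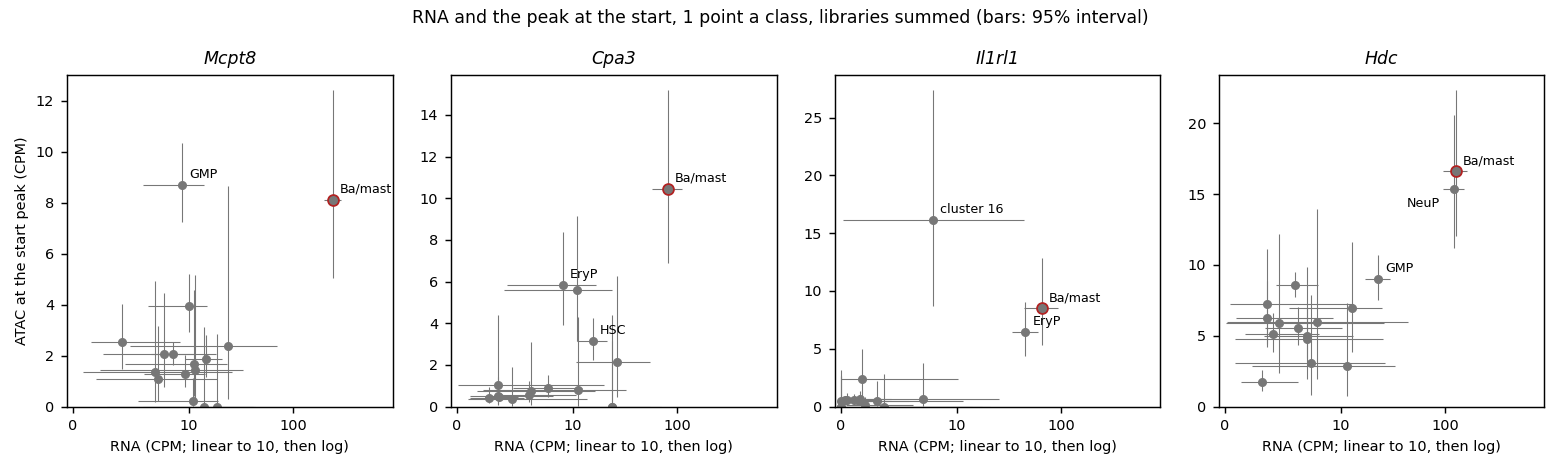
RNA level in CPM (x axis, linear to 10 and logarithmic above) against ATAC CPM of the peak at the start (y axis, linear) for 4 genes, 1 point per class with both libraries summed and bars for 95% intervals; the red-ringed point is the basophil/mast-like class. The start peak of Mcpt8 is as open in GMP-like nuclei at little RNA, that of Il1rl1 is open in EryP-like nuclei and in cluster 16, and that of Hdc is open in NeuP-like nuclei, where RNA is high as well.

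Il4 had open chromatin without detected RNA in the class. It had 0 UMIs in the class, which allows up to 8.36 CPM, and 10 UMIs in all other nuclei (0.447 CPM), of which 4 were in HSC-like nuclei and 4 in the large unnamed cluster 0. Il4 RNA below that limit could have been missed at this depth. The 20 peaks of its window, around chromosome 11 at 53602982 to 53618669 (minus strand), nevertheless held 162 ATAC CPM (147 to 178) in the class against 93.1 ATAC CPM (91.4 to 94.8) in other nuclei, a ratio of 1.74 (1.57 to 1.91; 1.79 in library 1 and 1.69 in library 2). EryP-like nuclei followed at 139 ATAC CPM (129 to 149.7).

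Of the 20 peaks, 3 passed 4-fold, beside 1.18% of all peaks. An intronic peak 12.7 kb into Il4 was at 7.81 and 18.7 ATAC CPM in the class in library 1 and library 2, or 5.39-fold (3.61 to 7.59), with 3.37 in library 1, below the threshold, and 7.16 in library 2. The other 2 lay upstream in Rad50, a DNA repair gene known to hold the locus control region of the type 2 cytokine genes. Whether they coincide with that region was not examined. The peak at −36.5 kb from the start, which overlaps a Rad50 exon, was at 15.2 and 13.003 ATAC CPM in the class and 1.85 ATAC CPM in other nuclei, or 7.61-fold (5.13 to 10.7), with 11.9 ATAC CPM in MkP-like and 9.24 ATAC CPM in EryP-like nuclei. The peak at −38.3 kb was 4.94-fold higher (2.999 to 7.78; 6.02 in library 1 and 3.82, below the threshold, in library 2), at 8.11 ATAC CPM beside 7.73 ATAC CPM in EryP-like nuclei. The peak over the downstream of 2 RefSeq starts was 2.83-fold higher (1.97 to 3.94), at 14.3 ATAC CPM in the class and 7.39 ATAC CPM in plasmacytoid dendritic cell progenitor-like nuclei, and no peak lay over the upstream start. The centre of the peak at −36.5 kb (chr11:53655054-53655353, minus strand, intronic in Rad50), with 1 GATA match, is shown because that peak had the largest ratio near Il4.
Il4 distal peak: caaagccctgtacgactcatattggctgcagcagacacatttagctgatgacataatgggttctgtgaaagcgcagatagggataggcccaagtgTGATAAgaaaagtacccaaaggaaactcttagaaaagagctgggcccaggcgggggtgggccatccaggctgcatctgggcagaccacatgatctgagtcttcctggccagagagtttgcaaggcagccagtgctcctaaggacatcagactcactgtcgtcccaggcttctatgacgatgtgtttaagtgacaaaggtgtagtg

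Across the 7 windows with peaks, 123 peaks summed to 738 ATAC CPM in the class and 519.7 ATAC CPM in other nuclei, a ratio of 1.42 (1.36 to 1.49; 1.49 in library 1 and 1.35 in library 2). Of the 123, 11 were at least 4-fold higher, beside 1.18% of all 173059 peaks with at least 100 counts. At 2-fold 26 of 123 passed, beside 7.41% of all peaks, and at 8-fold 3 of 123, beside 0.156%. At least 4-fold lower in the class were 8 of the 123, beside 16752 of the 173059. The median peak was at 1.16-fold among the 123 and at 0.907-fold among the 173059. The peaks are few and share windows and nuclei, so these counts are a description. Just inside the 4-fold threshold lay the Cpa3 peak at 2.31 kb and the Ms4a2 peak at 10.4 kb, both at 4.14-fold, and just outside lay the Prss34 peak at 18.4 kb (3.88-fold) and an Il4 peak at −44.5 kb (3.67-fold, 2.37 to 5.49).

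GATA letters were frequent in the 11 peaks. A match to AGATAA or TGATAA on either strand lay in 10 of the 11 (90.9%), in 59 of the other 112 peaks near the 8 genes (52.7%), in 86.8% of all 2045 peaks at least 4-fold higher in the class and in 52.5% of all 174282 peaks with sequence. In the central 300 bases the counts were 9 of 11 (81.8%) and 21 of 112 (18.8%), beside 64.9% of the 2045 and 22.0% of all. The 11 were thus like the other peaks of the class in this respect, and the peak without a match was the one at −5.27 kb from the Il1rl1 start. CEBP letters (TTGCNNAA) lay in 8 of the 11 whole peaks (72.7%), beside 38.4% of the 2045 and 31.4% of all, and in 4 of the 11 central windows (36.4%), beside 19.0% and 14.2%. RUNX letters (TGTGGT) lay in 6 of 11 (54.5%), beside 71.2% of the 2045 and 54.5% of all, and in 6 of the 11 central windows (54.5%), beside 51.3% and 29.7%, and STAT letters (TTCNNNGAA) in 4 of 11 (36.4%), beside 22.7%. PU.1 letters (GAGGAAGT) and the E-box CACGTG read by MITF lay in 0 of 11, beside 13.7% and 12.7% of all peaks, and AP-1 letters (TGACTCA or its reverse complement TGAGTCA) in 1 of 11, beside 16.9%. Matches of different motifs may overlap, and a match says nothing about binding. In the 250 bases before a RefSeq start, 5 of the 8 genes had a GATA match (Prss34, Cpa3, Ms4a2, Fcer1a and Il1rl1, not Mcpt8, Hdc or Il4), beside 16.6% of 32851 RefSeq promoters. The units differ, since a gene was counted for a match at any of its starts and the share is per promoter.

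**Figure D4:**
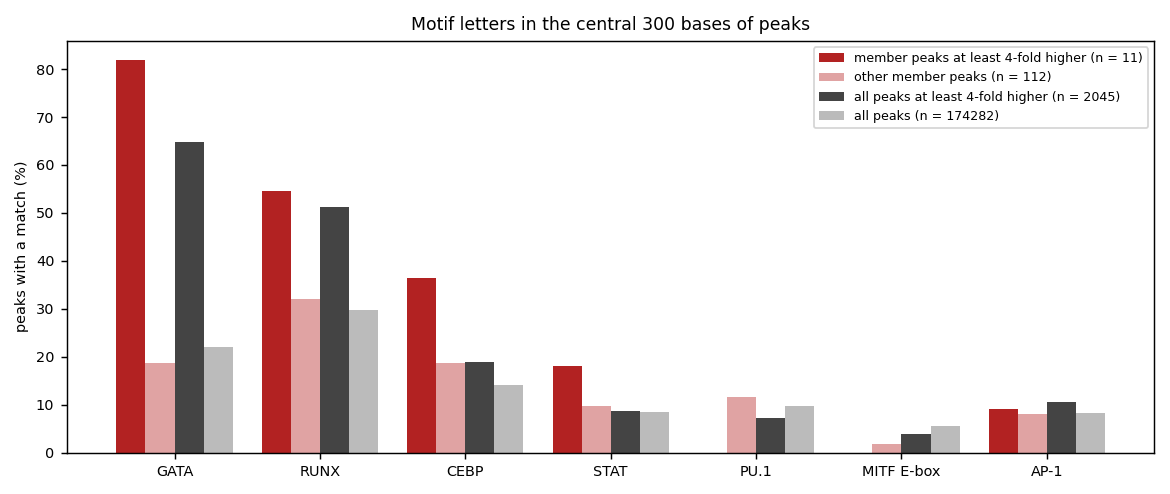
Share of peaks with a match to the letters of 7 motifs in their central 300 bases (y axis, percent, from 0), for the 11 peaks near the 8 genes that were at least 4-fold higher in basophil/mast-like nuclei, the other 112 peaks near these genes, all 2045 peaks at least 4-fold higher and all 174282 peaks. GATA letters stand at 81.8% in the 11 peaks, 64.9% in the 2045 and 22.0% in all, and the bars of PU.1 and the MITF E-box are at 0 for the 11.

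Nuclei with UMIs of 3 or more of the genes were found in the class and in no other. Of its 290 nuclei, 151 (52.1%, 46.2 to 57.9%) held a UMI of none of the 8 genes, 78 (26.9%) of exactly 1, 36 (12.4%) of exactly 2 and 25 (8.62%, 5.66 to 12.5%) of at least 3. Among the other 13329 nuclei, 20 (0.150%) held exactly 2 and 0 held 3 or more, which allows a share of up to 0.0277%. All 25 nuclei with 3 or more of the genes lay in a cluster that was built without these genes. Correlations were taken over 34 points, 17 clusters in each of 2 libraries, on log2 of CPM with 1 CPM added. Small counts outside the class weigh heavily on that scale. Prss34 and Ms4a2 correlated best (Pearson r = 0.755), followed by Mcpt8 and Prss34 (r = 0.566). Mcpt8 and Hdc had r = 0.040. Points of 1 library share its depth and preparation, so these values are a description.

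Genes outside the set whose level over the same 34 points was most like the summed 8 genes, among 8820 with at least 100 UMIs, were Lmo4 (r = 0.711), the leukotriene enzyme Alox5 (0.660), Tent5a (0.652), Syne1 (0.596), Arap3 (0.545), Aldoa (0.541), Spn (0.532), Far2 (0.517), Ap3s1 (0.510) and Klf6 (0.490). Levels were again taken as log2 of CPM with 1 CPM added. A high r did not always go with a large fold in the class. Aldoa (1.44-fold), Spn (1.58), Ap3s1 (1.93), Syne1 (2.59), Klf6 (3.83) and Tent5a (3.88) stayed below 4-fold. Lmo4 (6.89), Far2 (7.36), Arap3 (8.32) and Alox5 (20.9) were above it. Lmo4 also named the class. Alox5 had 45 of its 133 UMIs in the class, where it was at 102 CPM against 3.93 CPM in other nuclei.

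Lists of the wider effector pathways are read beside the 0.698% of all genes at least 4-fold higher, so that counts of 0 are near the share of all genes. Of 14 genes that carry the signal of the IgE receptor, 14 were compared and 0 were 4-fold higher, with a median fold of 0.816 beside 0.868 over all genes. The kinase Syk was at 72.5 CPM in the class and 84.8 CPM in other nuclei, the adaptor Gab2 at 156 and 115 CPM and the phosphatase Inpp5d at 111 and 140.0 CPM, so these were near the level of other progenitors. Of a list of 8 receptors, most of them for growth factors and cytokines, 1 passed, Cd200r3, on 4 UMIs. Cd200r3 belongs to the CD200 receptor family and binds no growth factor or cytokine. It is also on the marker list of the class, so it is no independent result. Kit, the receptor on which the cells were sorted, was at 149.5 CPM in the class and 101.7 CPM elsewhere (1.47-fold), Il3ra, the receptor chain for IL-3, at 43.1 and 18.8 CPM (2.22-fold), and Csf2rb, its shared partner, at 36.3 and 13.3 CPM (2.61-fold), all below the threshold.

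Of 10 transcription factors of the lineage, 9 were compared and 3 passed, Gata2 at 335 CPM against 17.999 CPM (17.7-fold), Ikzf2 at 435 against 44.0 CPM (9.69-fold) and Lmo4 at 485 against 69.5 CPM (6.89-fold). Gata2 and Lmo4 helped to name the class, so their level in it is no independent result. Runx1 was the most abundant, at 1421 CPM against 534 CPM (2.66-fold). Gata1 had 0 UMIs in the class and 59 elsewhere, and Mitf, a mast cell factor, had 9 UMIs (1.16-fold). Of 8 genes for lipid and amine mediators, 6 were compared and 2 passed, Alox5 (20.9-fold) and Slc18a2, the vesicle transporter for histamine, at 208 against 14.8 CPM (13.2-fold), which also named the class. Alox5ap, the partner of Alox5, stood at 22.7 against 24.1 CPM. Of 10 mast cell and granule proteases, Ctsg alone was compared (0.464-fold), Gzmb had 5 UMIs in the class and 3 elsewhere, and Cma1, Mcpt1, Mcpt2, Mcpt4, Mcpt9 and Tpsab1 had 0 UMIs in every nucleus. Of 6 cytokines and chemokines, 3 were compared and 1 passed, Csf1, at 45.3 CPM (20 UMIs) against 2.68 CPM (12.6-fold). Ccl4 and Ccl3 were at 15.9 and 13.6 CPM against 7.64 and 10.99 CPM, and Il13 had 0 UMIs in every nucleus.

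Few genes next to the 8 could be compared. Of 21 genes with an annotated start within 50 kb of a member, 5 were compared, among them Ctsg, Ms4a3, Il18r1 and Kif3a, and 0 passed 4-fold, beside 0.698% of all genes, so that the count says nothing about neighbours. The values ran from 0.464-fold for Ctsg to 2.05-fold for Il18r1, a subunit of the IL-18 receptor beside Il1rl1. Ms4a3, a granulocyte progenitor gene next to Ms4a2, was at 81.6 CPM in the class and 69.1 CPM in other nuclei (1.18-fold).

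All 6 detected genes were lower in library 2 than in library 1 within the class. The ratio of library 2 to library 1 was 0.509 for Mcpt8 (0.337 to 0.763), 0.425 for Prss34 (0.260 to 0.680), 0.272 for Ms4a2 (0.136 to 0.510), 0.284 for Hdc (0.146 to 0.524), 0.341 for Cpa3 (0.152 to 0.719) and 0.408 for Il1rl1 (0.170 to 0.923). These intervals take UMIs as independent, whereas the 53 and 29 UMIs of Prss34 lay in 23 and 15 nuclei. The thinned share of nuclei with a UMI was alike in both libraries for Mcpt8. It was lower in library 2 for Prss34, Ms4a2, Hdc, Cpa3 and Il1rl1, though the intervals of the libraries overlapped for each of these genes. Most of the other genes that could be compared between libraries were also lower there. The median ratio of 618 genes with at least 20 UMIs in the class in each library was 0.678, with 10% of them below 0.419 and 10% above 1.02, and genes of the ribosomal RNA locus took 56.0% of the class's UMIs in library 2 and 44.8% in library 1. Ms4a2, Hdc, Cpa3 and Il1rl1 had fewer than 20 UMIs in library 2 and could not be among the 618, which leave out genes that are low there, so the members' ratios are not read against that median. Nuclei with at least 3 of the genes numbered 21 of 127 (16.5%, 10.5 to 24.2%) in library 1 and 4 of 163 (2.45%, 0.673 to 6.16%) in library 2, at median depths of 1384 and 1390 UMIs. These depths include the ribosomal RNA locus, so a smaller part of them came from other genes in library 2. Chromatin of the 123 peaks was taken as a ratio over other nuclei, a different measure, at 1.49-fold in library 1 and 1.35-fold in library 2. With 1 sample per group and no label for the libraries, neither ligature nor the variation between mice or preparations can be told apart in these ratios.

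**Figure D5:**
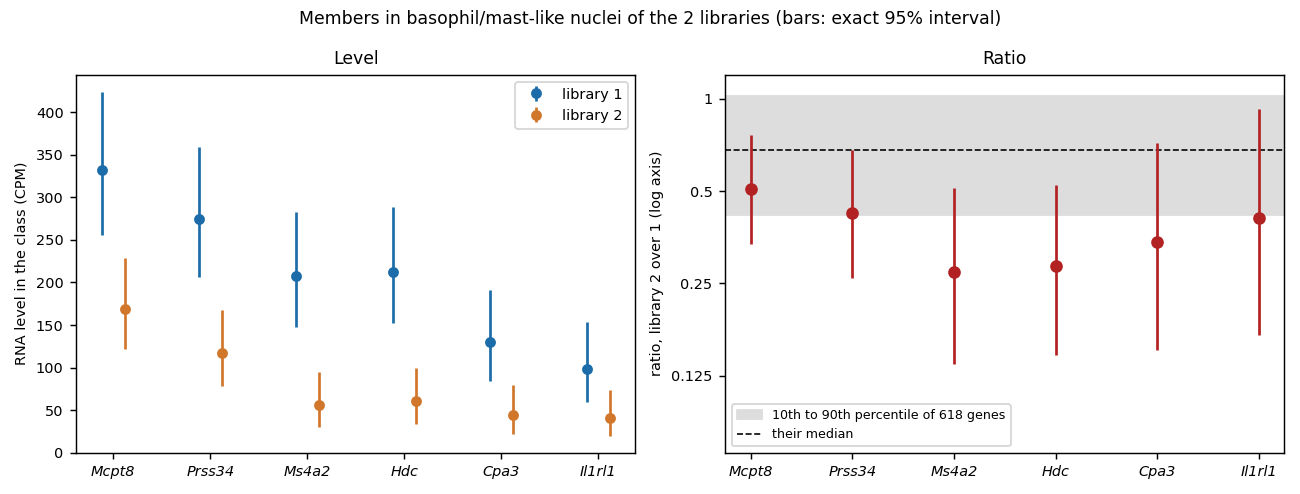
Left, RNA level in CPM (y axis, linear) of 6 genes in basophil/mast-like nuclei of each library; right, the ratio of library 2 to library 1 (y axis, logarithmic), with exact 95% intervals as bars, the median of 618 genes as a dashed line at 0.678 and their central range from 0.419 to 1.02 in grey. Each of the 6 genes is lower in library 2. The 618 genes have at least 20 UMIs in each library, which Ms4a2, Hdc, Cpa3 and Il1rl1 do not, so the line is no yardstick for these.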

How the data were processed

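BM nuclei were measured by single-nucleus multiome sequencing, RNA and ATAC from the same nuclei. The authors deposited 1 matrix of raw counts, UMIs per gene and ATAC counts per peak, not normalized, for both samples together. Per the matrix header and the submitters' processing notes Cell Ranger ARC 2.0.0 made it with the build GRCm38 (mm10), and the notes also name Seurat 4.0.3 and Signac 1.3.0. The deposited matrix held 18961 barcodes. A nucleus was kept if it had 200 genes or more and between 1000 and 50000 ATAC counts, which left 13619 nuclei with 10294527 and 12537328 UMIs and 118239764 and 128699726 ATAC counts in library 1 and library 2. Of nonzero peak entries 82.5% were even, because a fragment gives 2 insertions, so ATAC intervals were computed on halved counts. Genes of the ribosomal RNA locus (Gm42418, Gm26917 and AY036118) took 43.0% and 53.2% of UMIs. Scrublet called 3 nuclei (0.0220%) and had therefore not worked, so doublets were not removed.

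Nuclei were clustered in Seurat 5.3.0 (R 4.3.3) on 30 RNA components and ATAC components 2 to 30 joined by weighted nearest neighbours at resolution 0.8, after correction between libraries with RNA anchors. The members, and the peaks within 50 kb of them, were left out of the clustering. A cluster was named from at least 3 markers raised by log2 of at least 1, from lists that hold no member, and the names are rebuilt rather than the authors' own. Counts were summed per class and library (Python 3.11.15, numpy 2.4.6, scipy 1.17.1) and scaled to CPM of their kind. RNA was compared over genes with at least 20 UMIs with 1 CPM added, and ATAC over peaks with at least 100 counts. Intervals are exact Poisson for levels and Clopper-Pearson for shares. For ratios they are exact binomial intervals of how the counts split between the sides, turned into ratios. With 1 sample per group and no map from nuclei to samples, no p-value was computed, and a class set against the rest is a description. Gene positions are those of GENCODE vM21 (IDs ENSMUSG00000022157, ENSMUSG00000056399, ENSMUSG00000001865, ENSMUSG00000024680, ENSMUSG00000005339, ENSMUSG00000026069, ENSMUSG00000027360 and ENSMUSG00000000869 for Mcpt8, Prss34, Cpa3, Ms4a2, Fcer1a, Il1rl1, Hdc and Il4), and promoter sequences and starts those of RefSeq GRCm38.p6, in which all 8 members matched.

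The members and lists were chosen with earlier results of these data known. Named were all members, the 3 genes of each pathway list with the highest level in the class, the 10 genes most like the members, and for each member the peak nearest its start, the peak with the largest ratio and every peak past 4-fold. Other genes and peaks that are named were chosen after their values were seen. The comparison script was checked on simulated counts. Alternatives covered clustering, filters, scaling, thresholds, window and motif window, and the removal of shared barcodes and of either library. Some items are not reported here.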

Additional observations from a re-analysis of the deposited data

How the results depend on the processing

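Of 72 alternative values of the 6 main results, 57 stayed within the spread allowed, 15 moved and 0 reversed, and of 66 values for single genes 18 moved and 0 reversed. All 15 alternatives gave 6 members past the threshold. The share of all genes past it ran from 0.225% at 8-fold to 5.12% at 2-fold. As reported, the log2 ratio of class to other nuclei was 4.55 for RNA of the 8 genes and 0.51 for ATAC of their 123 peaks, 11 peaks passed 4-fold with GATA letters in 90.9%, and RNA in library 2 over library 1 was at −1.37. At resolution 0.4 the class joined MkP-like nuclei (674 nuclei), which gave 3.35 for RNA, 0.36 for ATAC, 4 peaks and GATA letters in 100%. With at least 500 genes, 90 nuclei of the class remained, with 6 peaks and −1.71 between libraries, and without the ribosomal RNA locus that value was −1.04. A threshold of 2-fold gave 26 peaks and 8-fold gave 3, beside 7.41% and 0.156% of all peaks. The share of all peaks was not computed again under the altered clusterings and filters. A window of 10 kb gave 1.201 for ATAC and 6 peaks. Chosen after seeing the data, library 1 alone gave 5.11 for RNA and 0.58 for ATAC, and library 2 alone 3.84 and 0.44. No paired analysis was possible because the labels do not tie the barcode suffixes to the groups and each group had 1 sample.

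The class holds 290 nuclei at a median of 1388 UMIs, and 0 UMIs in it allow up to 8.36 CPM, and Fcer1a and Il4 could not be compared. Nuclei of the class in which no member was detected cannot be told from nuclei that lack them. Counting intervals leave out the variation between mice and the clumping of UMIs in single nuclei.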
